A study of Mus musculus with 6 samples.

Results

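The genes described here are 10 that encode the enzymes writing methyl groups on lysine 9 of histone H3 (H3K9) and the proteins that hold, recruit or stabilise those enzymes. They were taken by symbol from a table of 21006 gene symbols, and all 10 (Ehmt1, Ehmt2, Wiz, Cdyl, Suv39h1, Suv39h2, Setdb1, Setdb2, Atf7ip and Trim28) were present and passed the filter on low counts, which left 14555 tested genes. RNA came from mouse branchial arches, the paired swellings that form the jaws and throat, at stage E11.5. In the 3 DKO (double knockout) libraries both Ehmt1 and Ehmt2 were homozygous for floxed alleles (f/f), and in the 3 control libraries both were wild type (+/+). Both groups also carried 1 Rosa26 TdTomato allele and the Wnt1-cre transgene, whose Cre acts in the neural crest, the migratory cells that fill the arches. The sequenced cells had been sorted on TdTomato, and replicates are labelled biological with no number of embryos given, so p-values measure the spread between these libraries. The comparison asks whether other H3K9 writers and their partners differ in RNA level in arch neural crest when Ehmt1 and Ehmt2 are deleted.

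Methylated H3K9 marks silent chromatin, and different enzymes place it at different sites. EHMT1 (GLP) and EHMT2 (G9a) bind each other and add mainly the first and second methyl groups in gene-rich chromatin, held by the zinc finger protein WIZ. SUV39H1 and SUV39H2 add the third methyl group at pericentromeric repeats, whereas SETDB1 does so at retroelements, where TRIM28 brings it through KRAB zinc finger proteins and ATF7IP stabilises it. In the neural crest these marks are one layer of control over which lineage genes can be used.

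Total counts per library lay between 23414466 and 44538260. Levels are given as CPM, the usual depth-scaled count, with edgeR's TMM factors, and each member had between 455 counts (Setdb2 in control replicate 2) and 39649 counts (Trim28 in DKO replicate 3) in a library. The 12 markers of arch crest mesenchyme fixed for this check summed to between 1738 and 2204 CPM in DKO libraries. In control libraries they summed to between 1999 and 2387 CPM. By edgeR 0 of the 12 were called, against 3.01% of all tested genes. Of the 12, 2 (Dlx5 and Tfap2a) lay lower in every DKO than in every control library, as did 12.7% of all tested genes. The lists differ in number of genes, and sums were not scaled for that. Epithelial and immune sums were far lower. The 6 epithelial markers summed to 16.4 to 25.5 CPM in DKO and 20.1 to 23.3 CPM in control libraries. The 5 immune markers summed to 8.54 to 13.3 CPM in DKO and 8.14 to 11.7 CPM in control libraries. Endothelial markers summed to 19.4 to 22.1 CPM in DKO libraries and 12.7 to 16.8 CPM in control libraries, without overlap. Of the 5, 0 were called, and 2 (Pecam1 and Emcn) lay higher in every DKO than in every control library. Among all 14555 tested genes 2108 lay higher in every DKO than in every control library, and 27.2% had no overlap in either direction. Markers of muscle and mesoderm summed to 66.2 to 79.3 CPM in DKO and 73.9 to 80.6 CPM in control libraries. Most of it came from Pax7, at 60.4 to 73.0 CPM in DKO and 66.1 to 75.8 CPM in control libraries. Tbx1 measured 1.48 to 4.81 CPM in DKO and 3.35 to 6.31 CPM in control libraries. Myod1, Myf5, Myog and Tcf21 each stayed at or below 0.92 CPM in every library. The 6 markers of crest glia and neurons summed to 854 to 888 CPM in DKO and 841 to 1028 CPM in control libraries. Erythroid markers varied most, from 12.8 CPM in DKO replicate 1 to 181 CPM in DKO replicate 3, against 61.8 to 113 CPM in control libraries. The part of these cells in the results below was not tested.

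Ehmt1 and Ehmt2, which encode the paired enzymes of H3K9 mono- and dimethylation, were the 2 members called lower, against 0.818% of all tested genes called lower, 2.19% called higher and 3.01% called in either direction. The 250 bases before 1 transcript start of each, the start first listed in RefSeq's promoter table, are shown because these are the 2 members that fell. The sequences are on build GRCm38.p6 and are written 5′ to 3′ on the gene's strand. RefSeq's gene spans, also given, reach slightly further upstream than these starts, so the last bases of each window lie inside the span. Capitals mark GC boxes, the hexamer GGGCGG or its reverse complement CCGCCC. Ehmt1 lies on the minus strand of chromosome 2 (24790769 to 24919643), its window is chr2:24919610-24919859, and it has 26 CpG dinucleotides. Ehmt2 lies on the plus strand of chromosome 17 (34898463 to 34914073), its window is chr17:34898224-34898473, and it has 18 CpG dinucleotides.
Ehmt1: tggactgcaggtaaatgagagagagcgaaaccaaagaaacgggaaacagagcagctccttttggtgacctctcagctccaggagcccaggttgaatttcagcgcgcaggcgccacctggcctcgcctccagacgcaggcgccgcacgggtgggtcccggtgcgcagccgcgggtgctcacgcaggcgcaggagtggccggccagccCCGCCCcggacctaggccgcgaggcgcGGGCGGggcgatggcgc
Ehmt2: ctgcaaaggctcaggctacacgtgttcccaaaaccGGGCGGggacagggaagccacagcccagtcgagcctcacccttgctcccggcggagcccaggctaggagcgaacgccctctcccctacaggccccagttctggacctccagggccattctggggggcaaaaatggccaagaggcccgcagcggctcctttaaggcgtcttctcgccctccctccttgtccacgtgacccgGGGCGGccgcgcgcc
Both windows held 2 GC boxes. Such a match was found for 9 of the 10 members, Setdb2 being the exception, and for 42.7% of the 17492 protein-coding genes with a window of this kind. The median number of CpG dinucleotides was 19 over the members and 10 over those genes. These matches describe the letters and say nothing of binding.

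In DKO replicates 1, 2 and 3 the level of Ehmt2 was 124, 119 and 140.4 CPM, against 347, 359.7 and 358 CPM in control replicates 1, 2 and 3. Every DKO library lay below every control library. The fitted level in DKO was 36.0% of that in control (95% interval 31.6% to 41.0%), with a log2 fold change of -1.47 (SE 0.08; quasi-likelihood test of edgeR, adjusted p = 0.000208). Ehmt1 measured 144, 133 and 168 CPM in DKO replicates, against 250.03, 259.7 and 268 CPM in control replicates, again without overlap. Its fitted level in DKO was 57.1% of that in control (95% interval 49.1% to 66.5%), or -0.81 on the log2 scale (SE 0.10; edgeR adjusted p = 0.00476). Against a minimum change of 1.5-fold the Ehmt1 call ended (edgeR adjusted p = 0.277). A count per gene takes in exons outside a floxed part, so these shares do not measure intact transcript, and in bulk RNA fewer cells that express a gene and less of its RNA per cell cannot be told apart.

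DKO replicate 3 had the highest level of both deleted genes among DKO libraries. Among DKO libraries it also had the highest sum of every marker list but that of arch crest mesenchyme. There its sum was the lowest of all 6 libraries, at 1738 CPM against 2129 and 2204 CPM in DKO replicates 1 and 2. The summed counts of 4 Y-linked genes were 1 in DKO replicate 3, against 4817 and 7305 in DKO replicates 1 and 2. On the first principal component of all tested genes DKO replicate 3 lay at -12.3. DKO replicates 1 and 2 lay at -31.8 and -37.0, and control replicates at 19.1 to 31.2. DKO replicate 3 was left out in turn. Without it the log2 fold changes were -1.55 for Ehmt2 and -0.91 for Ehmt1. Without any other 1 library they lay between -1.48 and -1.42 for Ehmt2 and between -0.82 and -0.73 for Ehmt1. The relation of these marker levels and Y-linked counts to the levels of Ehmt1 and Ehmt2 was not tested.

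**Figure D1:**
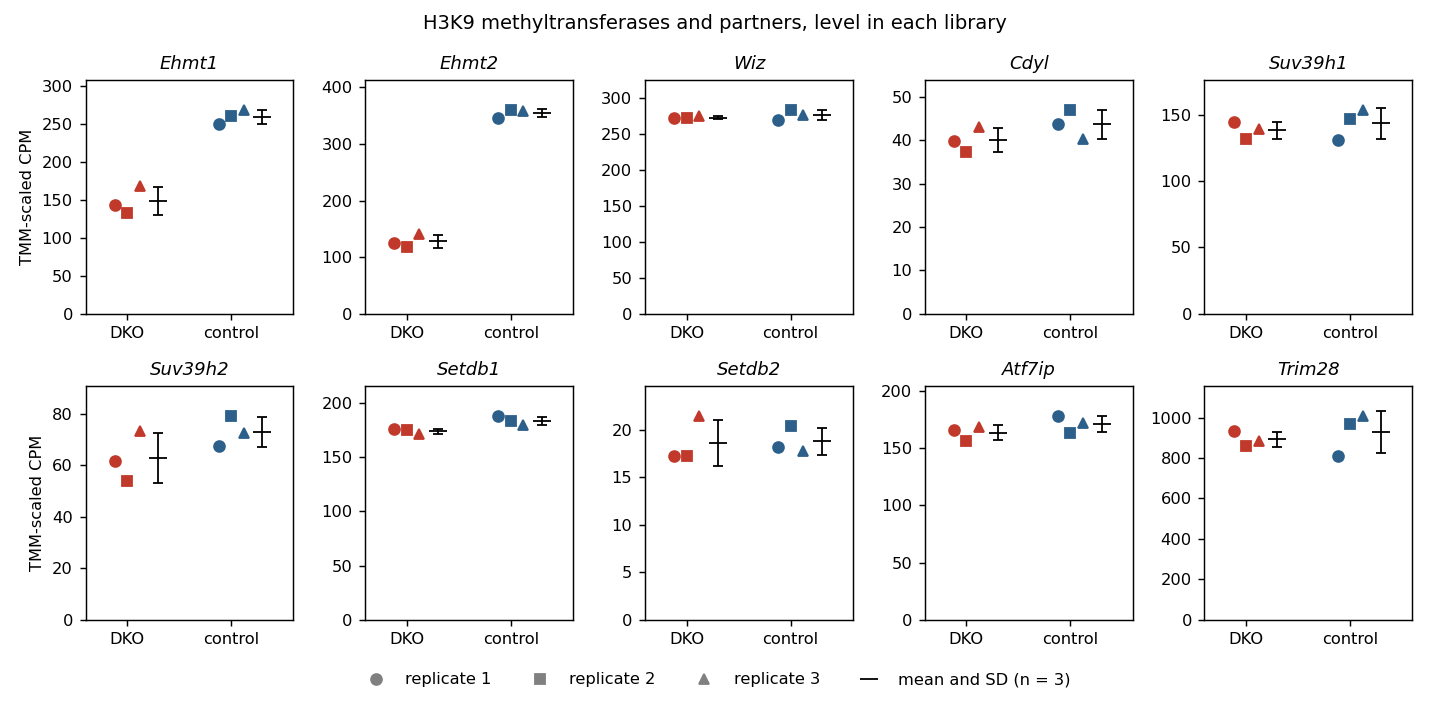
Level of each of the 10 genes in TMM-scaled CPM (y axis, from 0) in 3 DKO libraries (red, left) and 3 control libraries (blue, right). Symbols are replicates and black marks are the mean and SD. Ehmt1 and Ehmt2 separate the groups by a wide gap, Setdb1 by a narrow one, and the other 7 genes overlap.

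The fitted falls of the 2 deleted genes differed in size, in counts that take in exons outside the floxed parts. The count of Ehmt1 divided by that of Ehmt2 in the same library, a quantity that does not depend on how libraries are scaled, was 1.16, 1.12 and 1.20 in DKO replicates and 0.721, 0.722 and 0.748 in control replicates. Ehmt1 thus gave more counts than Ehmt2 in all 3 DKO libraries and fewer in all 3 control libraries. The transcript of Ehmt1 is longer (5.953 kb against 4.026 kb for Ehmt2). Per kilobase Ehmt2 stayed above Ehmt1 in DKO libraries, at 29.5 to 34.9 against 22.3 to 28.2 CPM per kb. On the log2 scale the ratio of counts averaged 0.21 ± 0.05 over DKO and -0.45 ± 0.03 over control libraries (SD, n = 3 per group), a difference of 0.66. The exact permutation p was 0.1, 2-sided, which is the smallest that 3 against 3 libraries can give, and it was 0.3 adjusted over the 6 ratios compared. Leaving out any 1 library gave differences between 0.64 and 0.69.

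None of the 8 other members rose or fell by the edgeR test, with 0 also at an unadjusted p under 0.05, 0 by DESeq2 and 0 by limma-voom. Over all tested genes DESeq2 called 4.29% higher and 3.31% lower, limma-voom called 2.82%, and 20.9% had an unadjusted p under 0.05. Their log2 fold changes lay between -0.21 and -0.011, with a median of -0.060, where the median over all tested genes was -0.0062. All 8 values were negative with TMM scaling, but 6 of the 8 were positive when libraries were scaled by total count only. The upper 95% limits lay between 1.04-fold (Suv39h2) and 1.21-fold (Setdb2), and the lower limits between 0.717-fold (Suv39h2) and 0.893-fold (Wiz). With TMM scaling and all 6 libraries, a rise above 1.21-fold was therefore outside the interval of each gene. Each interval was taken alone and covers the spread between these libraries, not the choice of scaling. With total-count scaling the estimate of Setdb2 was higher, at 0.070 on the log2 scale (SE 0.12).

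**Figure D2:**
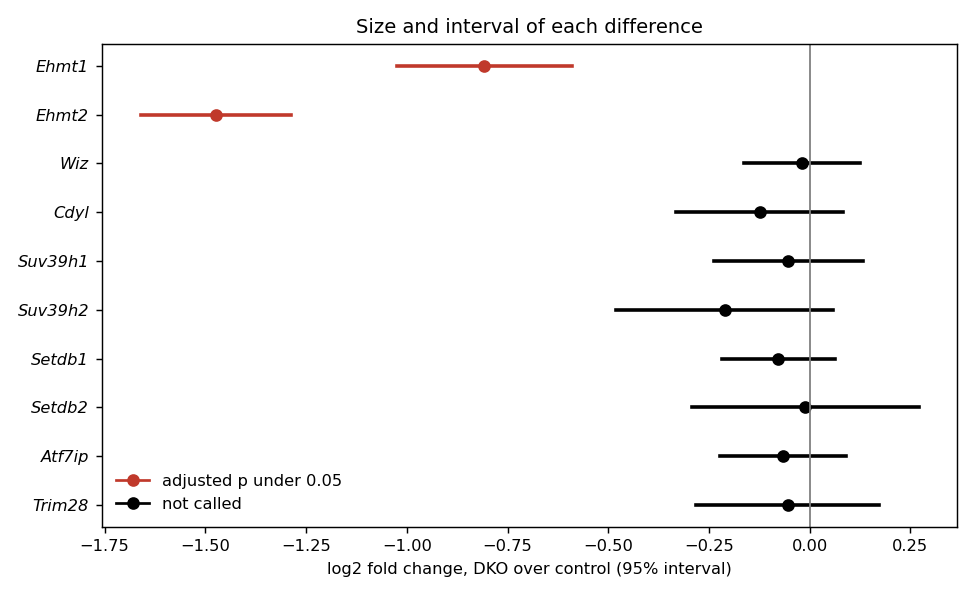
Log2 fold change of DKO over control (x axis) for each gene, with points for the estimate and lines for the 95% interval. The 2 called genes (red) lie at -1.47 and -0.81, and the intervals of the 8 others (black) all include 0.

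Among the partners of the EHMT enzymes, Wiz, whose zinc finger product joins and stabilises the EHMT pair, was the steadiest of the members within DKO libraries. It measured 272, 272 and 276 CPM in DKO replicates, against 270.3, 284 and 277 CPM in control replicates. The groups overlapped, the coefficient of variation was 0.731% in DKO and 2.40% in control libraries, and the fitted fold was 0.987 (95% interval 0.893 to 1.09; edgeR adjusted p = 0.899). The count of Wiz divided by that of Ehmt2 was 2.20, 2.29 and 1.96 in DKO libraries and 0.780, 0.788 and 0.774 in control libraries. On the log2 scale this ratio differed by 1.46 (exact permutation p = 0.1, the smallest possible; 0.3 adjusted over 6 ratios), close to the size of the fall of Ehmt2 itself. Cdyl encodes a chromodomain protein that reads methylated H3K9 and binds EHMT2. It measured 39.9, 37.3 and 43.0 CPM in DKO replicates, against 43.7, 47.0 and 40.4 CPM in control replicates. Its groups overlapped and its fitted fold was 0.917 (95% interval 0.794 to 1.06; edgeR adjusted p = 0.466).

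The SUV39H enzymes showed no called difference. Suv39h1, on the X chromosome (8061171 to 8074760), measured 145, 132 and 139 CPM in DKO replicates, against 131, 147 and 154 CPM in control replicates. Its groups overlapped, and the fitted fold was 0.964 (95% interval 0.848 to 1.10; edgeR adjusted p = 0.753). The summed counts of 4 Y-linked genes were 1 in DKO replicate 3 and 0 in control replicate 2, against 4635 to 8794 in the other 4 libraries. In those 2 libraries Suv39h1, at 139 and 147 CPM, lay between the other 2 libraries of its own group. Suv39h2, its paralog on chromosome 2, measured 61.5, 54.0 and 73.2 CPM in DKO replicates, against 67.3, 78.9 and 72.3 CPM in control replicates.

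Suv39h2 had the lowest fold of the 8, at 0.864 (95% interval 0.717 to 1.04; edgeR adjusted p = 0.340), and the widest spread among the DKO libraries of all 10 members, with a coefficient of variation of 15.4% in DKO and 7.98% in control libraries. DKO replicates 1 and 2 lay below all controls, and DKO replicate 3 lay within their range. Without DKO replicate 3 its log2 fold change was -0.34 (edgeR adjusted p = 0.0763), and without the other libraries in turn it lay between -0.26 and -0.11. The count of Suv39h2 divided by that of Suv39h1 was 0.425, 0.410 and 0.526 in DKO libraries and 0.515, 0.538 and 0.471 in control libraries. These overlapped (exact permutation p = 0.3; 0.6 adjusted over 6 ratios).

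Setdb1 was the 1 member beside Ehmt1 and Ehmt2 whose groups did not overlap, as was seen for 27.2% of all tested genes and, in the lower direction, for 12.7%. It measured 176, 175 and 171 CPM in DKO replicates, against 188, 183 and 180.01 CPM in control replicates. The gap was small: the fitted fold was 0.948 (95% interval 0.859 to 1.04; edgeR adjusted p = 0.502), and the log2 fold change was 0.00097 when libraries were scaled by total count only. Setdb2, whose product is a related SET domain protein, was the least abundant member and measured 17.3, 17.2 and 21.4 CPM in DKO replicates, against 18.2, 20.4 and 17.7 CPM in control replicates. Its groups overlapped and its fold was 0.993 (95% interval 0.817 to 1.21; edgeR adjusted p = 0.972). The count of Setdb2 divided by that of Setdb1 was 0.0983, 0.0983 and 0.125 in DKO libraries and 0.0969, 0.111 and 0.0986 in control libraries (exact permutation p = 0.7; 1 adjusted over 6 ratios).

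The partner genes of SETDB1 were not called, and their ratios to Setdb1 overlapped between the groups. Atf7ip, whose product binds SETDB1 and keeps it in the nucleus, measured 166, 156 and 168 CPM in DKO replicates, against 178, 163 and 172 CPM in control replicates, with overlap (fold 0.955, 95% interval 0.857 to 1.07; edgeR adjusted p = 0.623). Its count was 0.945, 0.890 and 0.980 of that of Setdb1 in DKO libraries and 0.947, 0.891 and 0.953 in control libraries. On the log2 scale this averaged -0.093 ± 0.070 over DKO and -0.11 ± 0.054 over control libraries (SD, n = 3 per group), a difference of 0.012 (exact permutation p = 1; 1 adjusted over 6 ratios). Trim28, the corepressor bound by KRAB zinc finger proteins, measured 934, 859.7 and 886 CPM in DKO replicates, against 809, 968 and 1006 CPM in control replicates. Here the control libraries were the more variable (coefficient of variation 4.20% in DKO and 11.2% in control libraries), control replicate 1 lay below all DKO libraries, and the fold was 0.963 (95% interval 0.822 to 1.13; edgeR adjusted p = 0.802). The log2 ratio of Trim28 to Setdb1 averaged 2.36 ± 0.057 over DKO and 2.33 ± 0.20 over control libraries (SD, n = 3 per group), with an exact permutation p of 0.9 (1 adjusted over 6 ratios).

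**Figure D3:**
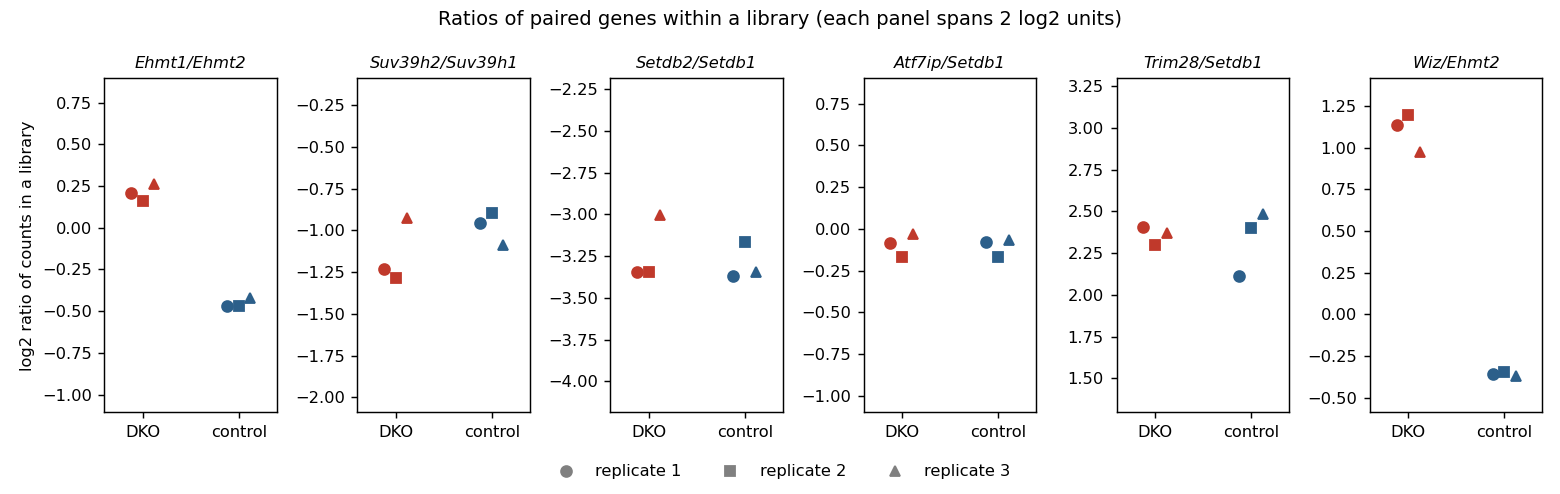
Log2 ratio of the counts of paired genes in the same library (y axis, each panel spanning 2 log2 units) in DKO (red, left) and control (blue, right) libraries, with symbols for replicates. Ehmt1/Ehmt2 and Wiz/Ehmt2 separate the groups, and the other 4 ratios overlap.

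Levels of different genes were compared per kilobase of the longest principal protein-coding transcript in GENCODE M21. Trim28 stood far above the rest, at 275 ± 11.6 CPM per kb over DKO and 286 ± 32.1 CPM per kb over control libraries (SD, n = 3 per group). Ehmt2 averaged 31.7 ± 2.81 CPM per kb in DKO and 88.1 ± 1.77 CPM per kb in control libraries, and Ehmt1 averaged 24.9 ± 3.05 CPM per kb in DKO and 43.5 ± 1.499 CPM per kb in control libraries. In control libraries Ehmt2 was second only to Trim28, and in DKO libraries Wiz (54.0 ± 0.395 CPM per kb), Suv39h1 (44.4 ± 2.10 CPM per kb) and Setdb1 (37.4 ± 0.499 CPM per kb) stood above it. The order from there down was Ehmt2, Ehmt1, Atf7ip, Suv39h2, Cdyl and Setdb2 in DKO libraries, and no 2 neighbours in the DKO order overlapped. In control libraries the order after Ehmt2 was Wiz, Suv39h1, Ehmt1, Setdb1, Atf7ip, Suv39h2, Cdyl and Setdb2. There the ranges of Suv39h1 (42.0 to 49.3 CPM per kb) and Ehmt1 (42.0 to 45.0 CPM per kb) overlapped, and those of other neighbours did not. Setdb2 closed both orders, at 6.21 ± 0.803 CPM per kb in DKO and 6.27 ± 0.480 CPM per kb in control libraries.

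Some members share bases with genes on the opposite strand in GENCODE M21: Suv39h2 with Dclre1c over 357 exonic bases, Setdb1 with Cers2 over 75 bases and with Gm37500 over 247 bases, Wiz with the noncoding gene Gm26858 over 2040 bases, Suv39h1 with the antisense gene Gm14820 over 551 bases and Atf7ip with the noncoding gene Gm44140 over 15 bases. With no strand setting given for the counting, reads over these bases cannot be assigned with certainty.

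Other genes of H3K9 methylation were read from the same test in 5 lists by role, 51 genes in all. Of these 0 rose and 1 fell, or 1.96% called against 3.01% of all tested genes. Their groups did not overlap for 13 of 51 genes (25.5%), against 27.2% of all tested genes, and 12 (23.5%) had an unadjusted p under 0.05, against 20.9% of all tested genes. Their median log2 fold change was -0.062. By DESeq2, which called 7.60% of all tested genes, 2 of the 51 rose and 7 fell. With edgeR and without DKO replicate 3, 0 rose and 5 fell, where 7.57% of all tested genes were called and 3.49% were lower. Without DKO replicate 1, 0 rose and 0 fell, where 0.888% of all tested genes were called and 0.142% were lower. The gene that fell by edgeR was Kdm3b, which encodes a demethylase of mono- and dimethylated H3K9, the states that EHMT1 and EHMT2 write. It measured 149, 151 and 161 CPM in DKO replicates, against 221, 213 and 214 CPM in control replicates, without overlap, and fell by 0.49 on the log2 scale (SE 0.07; edgeR adjusted p = 0.00803). The call ended without DKO replicate 1 (edgeR adjusted p = 0.0588) and against a minimum change of 1.5-fold (edgeR adjusted p = 1). The other 10 demethylase genes were not called. Kdm3a, named after its value was seen, had a similar estimate with a wider spread (log2 fold change -0.50, SE 0.12; edgeR adjusted p = 0.0686). It was called by DESeq2 (adjusted p = 0.00468) and by edgeR without DKO replicate 3 (adjusted p = 0.0228).

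Of the 13 genes of further EHMT partners, 0 were called (median log2 fold change -0.058). The 2 most abundant, the zinc finger gene Zfp462 and the corepressor gene Ctbp1, had log2 fold changes of -0.062 and 0.018. Zfp518a and Zfp518b, named after their values were seen, had the highest estimates of that list, and the product of ZNF518B is known in human cells to bind EHMT2. Zfp518b measured 204, 194 and 230.4 CPM in DKO replicates, against 166, 147 and 168 CPM in control replicates (log2 fold change 0.38, SE 0.09; edgeR adjusted p = 0.062). Zfp518a measured 44.8, 47.3 and 57.5 CPM in DKO replicates, against 39.1, 30.4 and 34.1 CPM in control replicates (log2 fold change 0.53, SE 0.13; edgeR adjusted p = 0.0673). Neither passed the threshold of edgeR with TMM and group as the only term. Zfp518b passed it with total-count scaling (adjusted p = 0.0404), and Zfp518b and Zfp518a both passed that of DESeq2 (adjusted p of 0.0048 and 0.00695).

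Of the 11 genes of HP1 and other H3K9 readers, 0 were called (median log2 fold change -0.14). Negative estimates were found for 8 of the 11, and for 7459 of all 14555 tested genes. The 2 most abundant were Cbx5, which encodes HP1 alpha, and Adnp, whose product forms a repressive complex with HP1. Cbx5 measured 607, 602 and 657 CPM in DKO replicates, against 734, 798 and 787 CPM in control replicates (log2 fold change -0.31, SE 0.08; edgeR adjusted p = 0.0743, DESeq2 adjusted p = 0.00146). Adnp had a log2 fold change of -0.13 (edgeR adjusted p = 0.343). The 3 other writer genes had 0 called (median log2 fold change 0.033), with Prdm2 at 0.033 and Prdm16 at -0.050. The 13 genes of HUSH and SETDB1-TRIM28 cofactors had 0 called (median log2 fold change -0.047), with Trim33 at -0.18 and Trim24 at 0.063. Morc2a, an ATPase gene of HUSH silencing named after its value was seen, lay just outside the threshold with 125, 134 and 135 CPM in DKO replicates, against 160.3, 165 and 159 CPM in control replicates (log2 fold change -0.30, SE 0.06; edgeR adjusted p = 0.0509). It was called by DESeq2 (adjusted p = 0.00146) and by edgeR without DKO replicate 3 (adjusted p = 0.0369).

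**Figure D4:**
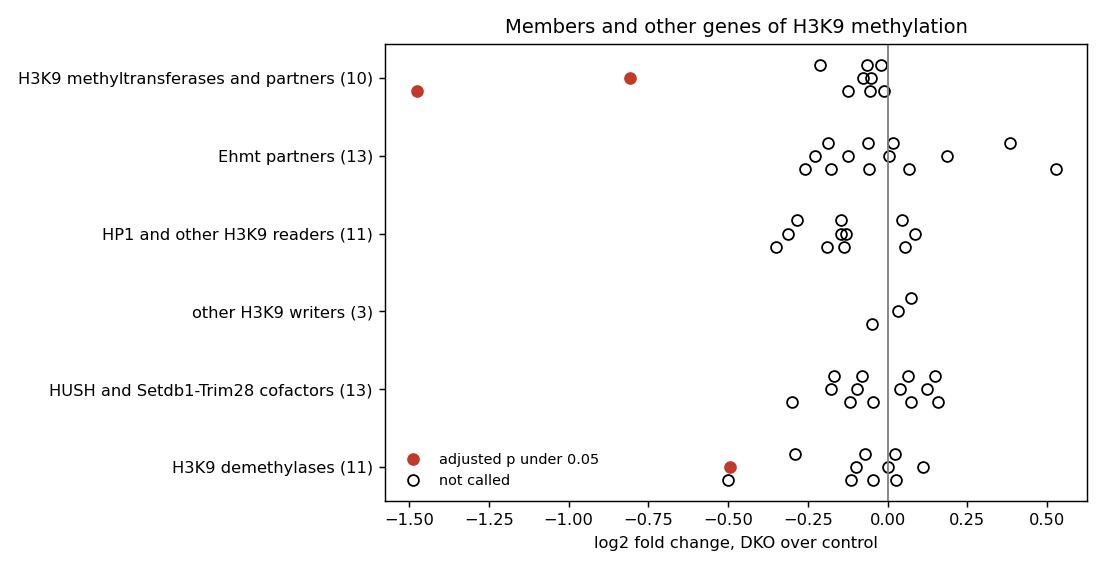
Log2 fold change of DKO over control (x axis) for the 10 members and for the genes of the 5 lists (rows, spread vertically only for legibility). Red points were called by edgeR and open points were not. Apart from Ehmt1 and Ehmt2, Kdm3b at -0.49 is the one called gene.

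The genes most like Ehmt2 over the 6 libraries, by Pearson's r of log2 CPM among genes of at least 10 CPM, were Zfp110 (r = 0.998), Lpcat3 (0.996), Kdm3b (0.994), Ehd2 (0.993) and Magohb (0.991). Ehmt1 ranked number 8 of 10223 genes in likeness to Ehmt2 (r = 0.988). Those most like Ehmt1 were Slc29a4 (r = 0.993), Ppp1r14a (0.992), Zmat3 (0.991), Usp46 (0.990) and Bcl7a (0.989). The 6 libraries form 2 groups, so any gene whose DKO group lies clearly below its control group gets a high r. These are the highest among 10223 genes. Their differences ranged widely: the log2 fold change was -0.64 for Zfp110 (edgeR adjusted p = 0.00466), -1.10 for Ehd2 (adjusted p = 0.00204) and -0.67 for Ppp1r14a (adjusted p = 0.0324), whereas Lpcat3 at -0.15 and Bcl7a at -0.13 were not called (adjusted p of 0.292 and 0.275).

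**Figure D5:**
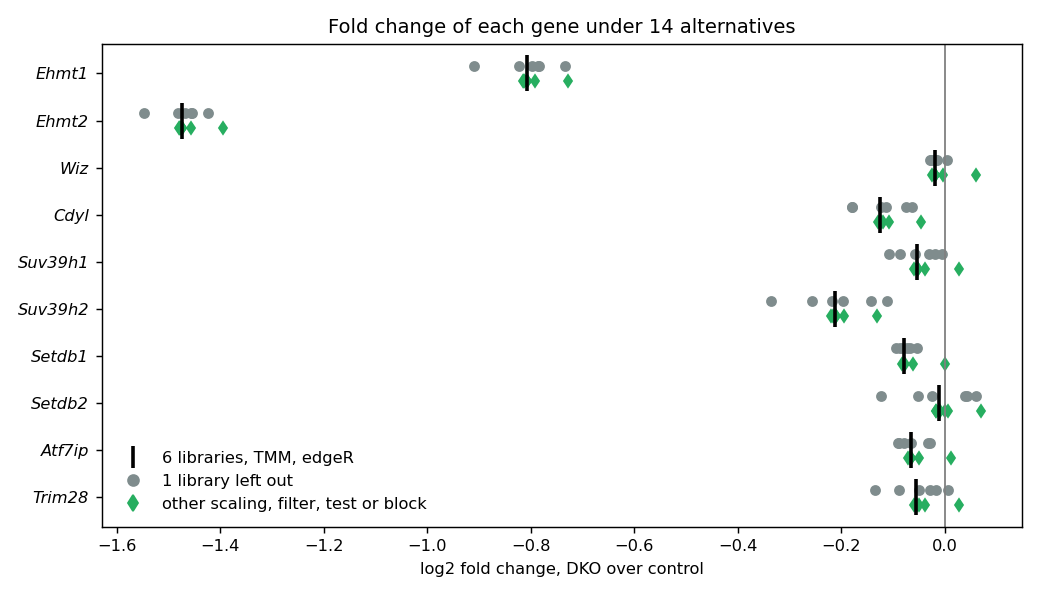
Log2 fold change of DKO over control (x axis) of each member with all 6 libraries (black bar), with 1 library left out (grey) and with another scaling, filter, test or block (green). Ehmt2 stays between -1.55 and -1.39 and Ehmt1 between -0.91 and -0.73, whereas the 8 others stay between -0.34 and 0.07.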

How the data were processed

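RNA was measured in 3 DKO and 3 control libraries of polyadenylated RNA prepared with a stranded mRNA kit, per the labels' protocols. The authors deposited raw counts, whole numbers per gene symbol. The submitters' processing notes list Trim Galore, STAR (version 2.7.10a), Picard and build mm10. No source used here names the program that counted, whether it used strand, its annotation, or a removal of duplicates. The table's columns named WT are the controls, matched by replicate number.

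Counts were tested with edgeR 4.0.16 in R 4.3.3 (filterByExpr with minimum count 10 and minimum total 15, TMM, robust quasi-likelihood, group as the only term, 2-sided). Benjamini-Hochberg adjustment ran over all 14555 tested genes, with calls below 0.05. Log2 fold changes are DKO over control, and 95% intervals use the fit's standard error and degrees of freedom. The test was checked on simulated counts. Within-library ratios were compared by exact permutation. Alternatives were RLE, total-count scaling, 2 filters, DESeq2 1.42.0, limma-voom (limma 3.58.1), a 1.5-fold threshold, a replicate block and leaving out each library. The members and lists were chosen with earlier results of these data known. Named were all members, up to 4 called genes per list or the 2 most abundant, and the 5 genes most like Ehmt1 and Ehmt2; others are marked.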

Additional observations from a re-analysis of the deposited data

How the results depend on the processing

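With each of the 14 alternatives 0 of the 8 other members were called, and Ehmt2 stayed called. Ehmt1 stayed called under 13, the exception being the 1.5-fold threshold, which left 1 member lower in place of 2. Uncalled members near 0 changed sign. With total-count scaling, which moved the median of all tested genes by 0.079, the log2 fold changes were 0.061 for Wiz, 0.027 for Suv39h1, 0.00097 for Setdb1, 0.070 for Setdb2, 0.012 for Atf7ip and 0.027 for Trim28. Setdb2 turned to 0.0058 with at least 1 CPM in 3 libraries, 4.1e-05 with limma-voom, and lay between -0.12 and 0.060 with 1 library left out; Wiz lay between -0.027 and 0.0053, and Trim28 between -0.13 and 0.0060. With 1 library left out, differences in log2 ratio ranged from -0.055 to 0.12 for Setdb2/Setdb1, from -0.020 to 0.050 for Atf7ip/Setdb1 and from -0.082 to 0.10 for Trim28/Setdb1.

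Counts of called genes moved more. They were 438 (319 higher, 119 lower) with edgeR, 1106 (624 and 482) with DESeq2, 122 (104 and 18) against 1.5-fold, and 131 to 1106 (110 to 597 and 21 to 509) with 1 library left out. The higher share of calls was 72.8% with edgeR, 83.9% with total-count scaling, 56.4% with DESeq2 and 85.2% against 1.5-fold.

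Over all tested genes 3.01% were called with edgeR, 7.60% with DESeq2, and 496 of 14555 with total-count scaling. Among list genes, EHMT partners had 0 higher and 0 lower with edgeR, 2 higher (Zfp518a, Zfp518b) and 2 lower (Hdac1, Hdac2) with DESeq2, and 1 higher (Zfp518b) with total-count scaling. Readers had 0 and, with DESeq2, 2 lower (Cbx3, Cbx5). HUSH and SETDB1-TRIM28 cofactors had 0 lower, 1 with DESeq2 (Morc2a), and 0 to 2 with 1 library left out, the 2 being Morc2a and Smarcad1 without DKO replicate 3. Demethylases had 1 lower, 2 with DESeq2 (Kdm3a, Kdm3b), 0 against 1.5-fold, and 0 (without DKO replicate 1, where 0.888% of all tested genes were called) to 3 (without DKO replicate 3, where 7.57% were) with 1 library left out. The cause of these moves was not tested.

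The deviations of same-numbered DKO and control libraries from their group means correlated at 0.051, -0.026 and 0.36, so the numbers were not taken to pair the libraries. With the replicate block, 619 of 14555 tested genes were called (423 higher, 196 lower). Among them were 2 higher EHMT partners (Zfp518a, Zfp518b), 2 lower demethylase genes (Kdm3a, Kdm3b) and 0 of the 8 other members. For 2 of the 3 DKO libraries the control of the same number correlated best. Setdb2, the member with the fewest counts, had the largest SE of the members (0.123 on the log2 scale), close to that of Suv39h2 (0.118). The part of counting noise in these was not tested.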
